A study of Mus musculus with 4 samples.

Results

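Checkpoint ligands and immunosuppressive enzymes were examined as 10 genes whose products let a tumour cell restrain T cells, natural killer cells and macrophages. The genes were Cd274, Cd276, Cd80 and Vtcn1 of the B7 family, Cd47, Lgals9, the ectonucleotidases Nt5e and Entpd1, and the prostaglandin E2 enzymes Ptgs2 and Ptges. They were taken by symbol from the 24411 genes listed in each of 4 RNA-seq libraries made from 4T1 cells, an established line of mouse mammary carcinoma, and all 10 symbols were found. Of the 10 genes, 7 were detected and tested, and Cd80, Vtcn1 and Entpd1 were listed at 0 in all 4 libraries.

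The series holds 2 control libraries and 2 libraries labelled CD95ko, for which the labels state a disruption of Fas, the gene of the death receptor CD95, in the same line. All cells were grown in RPMI medium with fetal bovine serum and received no further agent. Per the labels' protocols, the CD95ko cells first received Cas9 with a blasticidin resistance gene from a lentivirus and then a pair of guide RNAs against exon 9, and were grown out from single sorted cells, so each CD95ko library is 1 clone. The protocols name an untransduced line and the Cas9 line as the other RNA sources, but the titles assign neither to control 1 or control 2, so whether a control carried Cas9 is not given by its label. Nothing states that libraries of a group came from repeated cultures of the same cells, so p-values measure only the spread between these libraries.

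A tumour cell can signal to immune cells through surface ligands and through small molecules. PD-L1, encoded by Cd274, engages PD-1 on T cells, and CD47 engages SIRPα on macrophages and inhibits phagocytosis. The ectoenzymes CD39 (Entpd1) and CD73 (Nt5e) act in sequence, CD39 removing phosphates from extracellular ATP to give AMP and CD73 turning AMP into adenosine, which dampens T cells and natural killer cells. Cyclooxygenase 2 (Ptgs2) makes prostaglandin H2 from arachidonic acid, and prostaglandin E synthase (Ptges) turns that into prostaglandin E2, another suppressor of these cells. Interferon-γ is a known inducer of Cd274, and inflammatory and growth signals are known inducers of Ptgs2.

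Expression was given as TPM (transcript abundance scaled for transcript length and library size), which allows levels of different genes to be compared but carries no read number, so depth is unknown. The targeted gene does not separate the groups: Fas was at 49.4 and 39.2 TPM in the controls, at 15.8 TPM in the library labelled CD95ko 1 and at 49.5 TPM in the library labelled CD95ko 2 (log2 fold change -0.63 ± 0.54 SE, limma adjusted p = 0.615). Gene-level TPM does not resolve exon 9, and all directions below refer to the libraries as labelled, also where they are written CD95ko 1 and CD95ko 2. The tested genes had a median of 16.3 TPM in control 2 and of 21.3 to 22.8 TPM in the other libraries. Markers of 4T1 as an epithelial tumour line were present, with all 8 (Epcam, Cdh1, 5 keratins and Cldn4) detected in every library. They summed to 5944 and 5597 TPM in the controls and to 9611 and 13971 TPM in CD95ko 1 and CD95ko 2. At an unadjusted limma p under 0.05, 5 of the 8 (62.5%) were higher, against 9.25% of all tested genes, and 0 after adjustment. Krt14 overlapped between the groups, at 24.1 and 20.65 TPM in the controls and 6.98 and 158 TPM in CD95ko 1 and CD95ko 2. The part of the 8 markers in the results was not tested. Of 16 leukocyte markers, 13 were at 0 in all libraries, among them Ptprc, Cd3e, Itgam, Adgre1, Lyz2 and Tyrobp. The list summed to 46.2 to 57.8 TPM in the controls and 53.0 to 253 TPM in the libraries labelled CD95ko, from Cd68, Cd14 and Csf1r. Of 8 stromal markers 5 were at 0 throughout and the list summed to at most 4.52 TPM. Of 5 endothelial markers, 4 were at 0 throughout.

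Genes with at least 1 TPM in at least 2 libraries (11167) were compared between the groups with limma on log2(TPM + 1). Differences are on that scale, which understates the change of low genes, and adjusted p-values cover all tested genes. An adjusted p under 0.05 was reached by 6 tested genes (0.0537%) and by none of the 7 tested genes examined here. An unadjusted limma p under 0.05 was reached by 1 of the 7, Ptgs2, against 14.9% of all tested genes. The median log2 fold change of the 7 was 0.06, against 0.13 over all tested genes. No gene of the 7 was over 2-fold higher, or over 2-fold lower, in every one of the 4 knockout-control pairs, a separation shown by 5.49% of tested genes. Groups did not overlap for 1 of the 7, against 47.6% of tested genes.

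**Figure D1:**
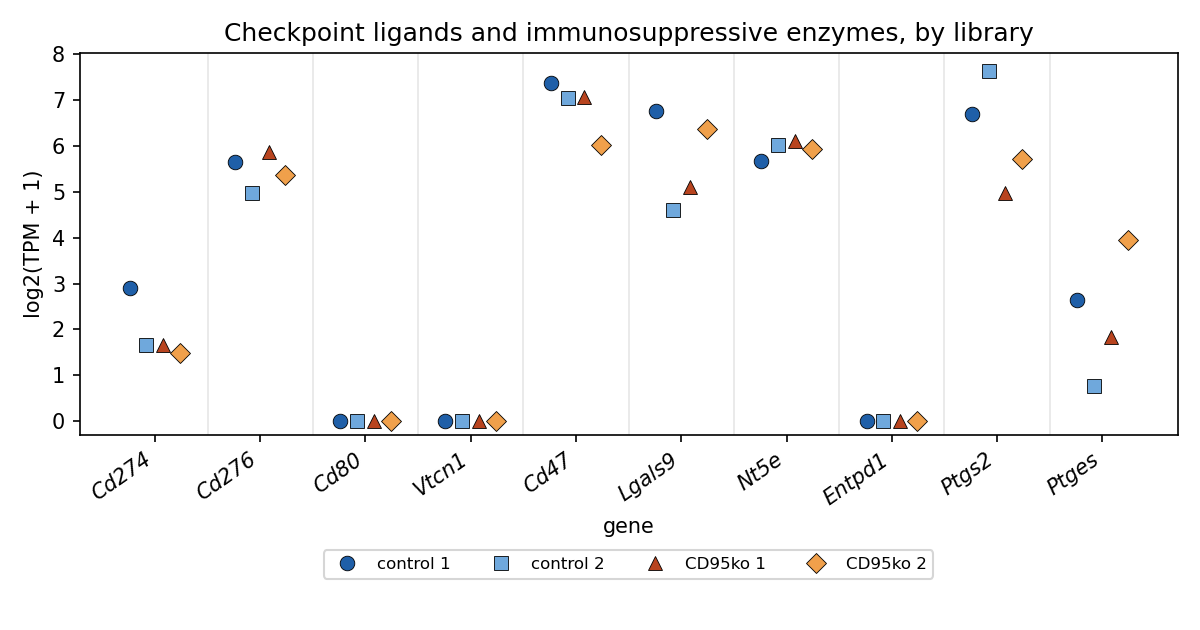
Level of each of the 10 genes in each library, as log2(TPM + 1); circles and squares are controls, triangles and diamonds libraries labelled CD95ko. Cd80, Vtcn1 and Entpd1 sit at 0 in all libraries, and Ptgs2 is the gene whose groups do not overlap.

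Ptgs2, which encodes the inducible cyclooxygenase COX-2, was the gene of the 10 that separated the groups. Its level was 103 TPM in control 1 and reached 199 TPM in control 2, and it was 30.5 and 52.0 TPM in the libraries labelled CD95ko 1 and CD95ko 2. Both libraries labelled CD95ko lay below both controls, and control 2 lay highest. Their mean was 41.2 ± 15.2 TPM against 151 ± 68.2 TPM in the controls (SD, n = 2 each), or 27.3% of the control mean.

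The log2 fold change of Ptgs2 was -1.82 ± 0.43 SE (95% interval -2.80 to -0.84), with an unadjusted limma p of 0.00242 and an adjusted p of 0.145. It ranked 186th of 11167 tested genes by p-value, and 1.9% of tested genes had a more negative fold change. The 4 knockout-control differences ran from -2.67 (CD95ko 1 against control 2) to -0.97 (CD95ko 2 against control 1), the last just under a 2-fold difference. Without control 1 the fold change was -2.29, and without control 2 it was -1.34. Without the library labelled CD95ko 1 the fold change was -1.44, and without CD95ko 2 it was -2.19. In each of these fits the lone library was assumed to vary as the pair of the other group.

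Ptgs2 is a forward-strand gene on chromosome 1, from 150100031 to 150108227 (GRCm38, GENCODE M21), with no other annotated gene overlapping it. Its promoter is shown because it is the gene whose groups were apart. RefSeq (GRCm38.p6) gives chr1:150099781-150100060, forward strand, as 250 bases before to 30 bases after the annotated start. Capitals mark ACGTCA, the core of the cyclic AMP response element, joined to the E-box CACGTG, which overlaps its last letters.
Ptgs2 promoter: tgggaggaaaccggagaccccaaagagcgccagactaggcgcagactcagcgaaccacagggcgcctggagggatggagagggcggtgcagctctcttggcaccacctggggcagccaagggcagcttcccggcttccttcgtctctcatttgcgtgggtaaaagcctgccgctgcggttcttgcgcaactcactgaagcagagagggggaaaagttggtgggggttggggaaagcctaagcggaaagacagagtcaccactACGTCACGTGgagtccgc
ACGTCA begins at base 13 and CACGTG at base 17 after the annotated start. Over 300-base windows, searched on both strands, 7.51% of 32851 RefSeq promoters hold ACGTCA and 7.15% hold CACGTG. Both motifs were chosen after this window had been seen. ACGTCA also occurs in windows of Cd47 and Entpd1.

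Ptges encodes the microsomal prostaglandin E synthase that is usually induced together with COX-2. It was low, at 5.20 TPM in control 1, 0.71 TPM in control 2, 2.58 TPM in the library labelled CD95ko 1 and 14.4 TPM in CD95ko 2. The groups overlapped, and control 2, the highest library for Ptgs2, was the lowest for Ptges. The log2 fold change was 1.19 ± 0.89 SE (95% interval -0.82 to 3.20, limma adjusted p = 0.562), which is within the spread between libraries. Without the library labelled CD95ko 1 the fold change was 2.24, and without CD95ko 2 it was 0.14. The high value in CD95ko 2 coincides with Cd68 at 146 TPM and Cd14 at 102 TPM in the same library. The other libraries had at most 44.6 and 13.0 TPM. Csf1r, the other leukocyte marker detected, was instead highest in CD95ko 1, at 22.2 TPM against 5.07 TPM in CD95ko 2. Ptprc, Itgam and Adgre1 were at 0 in CD95ko 2.

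The rest of the prostaglandin pathway was described from a list of 25 further genes. Of these, 8 were at 0 in all libraries, 13 were tested, 3 were higher and 1 was lower at an unadjusted limma p under 0.05, and none passed after adjustment. In all tested genes 9.25% were higher and 5.68% lower by the same rule. The list's median log2 fold change was 0.46, against 0.13 over all tested genes.

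Ptgs1, which encodes the constitutive cyclooxygenase COX-1, was at 25.5 and 17.9 TPM in the controls and at 87.0 and 109 TPM in the libraries labelled CD95ko 1 and CD95ko 2. Every library labelled CD95ko lay more than 2-fold above every control (log2 fold change 2.13 ± 0.38 SE, limma adjusted p = 0.0804). This is the opposite direction to Ptgs2. COX-1 and COX-2 catalyse the same reaction, so their transcripts were also set against each other within each library, a comparison chosen after the values had been seen.

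The ratio of Ptgs1 to Ptgs2 was 0.249 in control 1 and 0.0899 in control 2, against 2.85 in CD95ko 1 and 2.09 in CD95ko 2. Ptgs2 thus made up 80.1% and 91.7% of the summed cyclooxygenase TPM in the controls, against 26.0% and 32.3% in CD95ko 1 and CD95ko 2. The difference between the groups in the log2 level of Ptgs1 over Ptgs2 was 3.95. No p-value is given for this difference, since the pair was chosen on these values. The summed TPM of the pair overlapped between the groups, at 128 and 217 in the controls against 117 and 161 in CD95ko 1 and CD95ko 2.

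Among the other prostaglandin genes, the prostaglandin transporter Slco2a1 was at 38.1 and 25.4 TPM in the controls and at 67.8 and 99.7 TPM in the libraries labelled CD95ko (log2 fold change 1.37 ± 0.39 SE, limma adjusted p = 0.184). The prostaglandin reductase Ptgr2 was at 16.9 and 9.97 TPM against 30.1 and 39.4 TPM (a log2 fold change of 1.34 ± 0.46 SE, limma adjusted p = 0.239). Ptges3, the cytosolic synthase also known as the p23 co-chaperone, was at 275 and 248 TPM against 169 and 153 TPM (a log2 fold change of -0.69 ± 0.29 SE, limma adjusted p = 0.315). Of the prostaglandin E2 receptor genes, Ptger1 was at 32.5 and 15.4 TPM in the controls and at 43.8 and 44.0 TPM in the libraries labelled CD95ko (log2 fold change 0.94 ± 0.46 SE, limma adjusted p = 0.376). Ptger4 was at 0.37 and 0.40 TPM in the controls and at 0 in both libraries labelled CD95ko. Ptger2, Ptger3 and the prostaglandin-degrading dehydrogenase Hpgd were at 0 in all libraries, as were Pla2g2a, Hpgds, Alox5, Alox12 and Alox15. The phospholipase gene Pla2g4a, which releases arachidonic acid, was at 60.5, 65.5 and 71.0 TPM in the controls and CD95ko 2 but at 15.0 TPM in the library labelled CD95ko 1.

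**Figure D2:**
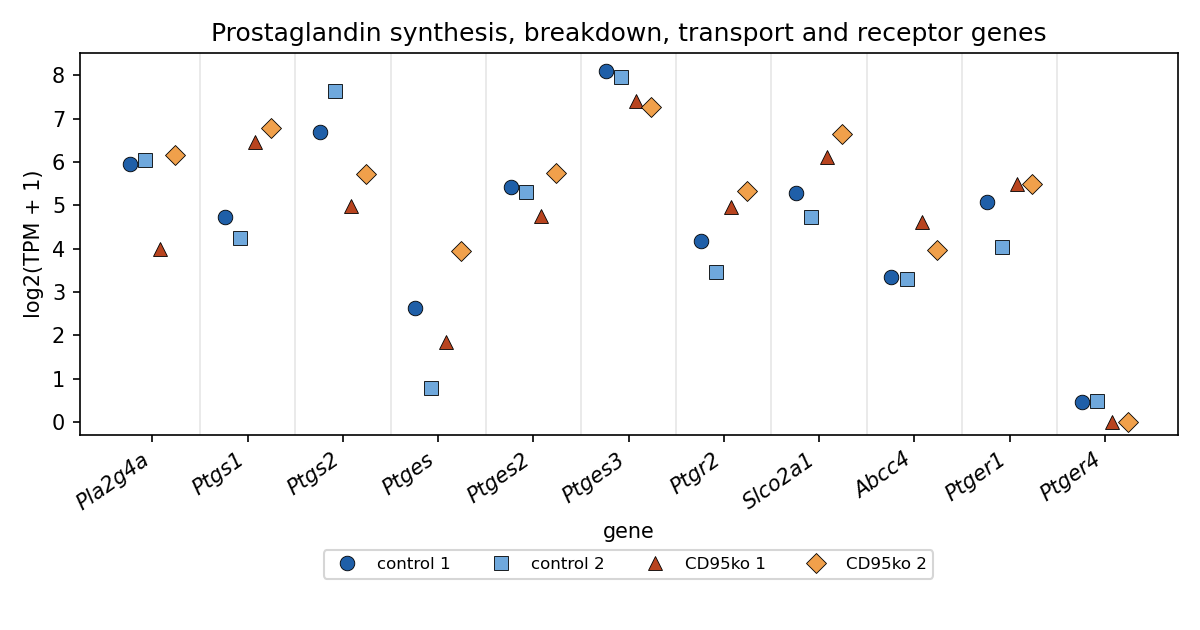
Level of 11 genes of prostaglandin synthesis, breakdown, transport and reception in each library, as log2(TPM + 1). Ptgs1 and Ptgs2 separate the groups in opposite directions, and Ptges follows neither.

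Cd274, which encodes PD-L1, was weakly expressed. It was at 6.52 TPM in control 1, 2.15 TPM in control 2, 2.16 TPM in the library labelled CD95ko 1 and 1.80 TPM in CD95ko 2. Control 1 stood alone, and control 2 lay between the libraries labelled CD95ko. The log2 fold change was -0.71 ± 0.68 SE (95% interval -2.25 to 0.83, limma adjusted p = 0.656). It was -0.08 without control 1 and -1.34 without control 2. The gene lies on chromosome 19 from 29367455 to 29388095 (GRCm38, forward strand), within which GENCODE M21 also annotates an antisense gene. The strand setting of the counting is not given in the sources used here, so reads of the 2 strands cannot be told apart.

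Genes that act on PD-L1 and CD47 were described from a list of 22, of which 21 were found and tested. At an unadjusted limma p under 0.05, 2 (9.52%) were higher and 1 (4.76%) was lower, near the 9.25% and 5.68% of all tested genes, and none passed after adjustment. The median log2 fold change was 0.06, against 0.13 over all tested genes. Irf1, an interferon-induced transcription factor, was at 259 TPM in control 1, 84.8 TPM in control 2, 101 TPM in CD95ko 1 and 253 TPM in CD95ko 2, so it was high in control 1 and in CD95ko 2.

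Jak2, a kinase of the interferon-γ receptor, was at 23.4 and 12.7 TPM in the controls and at 40.9 and 72.4 TPM in the libraries labelled CD95ko (log2 fold change 1.60 ± 0.47 SE, limma adjusted p = 0.191). Myc, a transcription factor reported to act on Cd274 and Cd47, was at 716 and 659 TPM against 311 and 106 TPM (a log2 fold change of -1.91 ± 0.46 SE, limma adjusted p = 0.147). B3gnt3, a glycosyltransferase that modifies PD-L1, was at 46.0 and 40.9 TPM against 133 and 160 TPM (a log2 fold change of 1.72 ± 0.33 SE, limma adjusted p = 0.0959). Myc and B3gnt3 were over 2-fold apart in all 4 pairs, and the fold change of Myc was -1.14 without CD95ko 2. Cmtm6, which keeps PD-L1 from lysosomal degradation, was at 25.6 to 32.0 TPM in the 4 libraries with no order by group.

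Cd276 encodes B7-H3, a B7 family ligand often abundant on carcinoma cells. It was at 49.1 and 30.4 TPM in the controls and at 57.0 and 40.4 TPM in the libraries labelled CD95ko. The groups overlapped (log2 fold change 0.31 ± 0.41 SE, 95% interval -0.62 to 1.23, limma adjusted p = 0.768). Among the B7 genes it stood highest, at a mean of 44.2 TPM over the 4 libraries against 3.16 TPM for Cd274. Cd276 lies on chromosome 9 from 58524298 to 58555437 on the reverse strand (GRCm38).

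Cd80, which encodes a ligand of both CD28 and CTLA-4, and Vtcn1, which encodes the inhibitory ligand B7-H4, were listed at 0 in every library. Cd86, the partner of Cd80, and Pdcd1lg2, which encodes the second PD-1 ligand PD-L2, were at 0 as well. Since depth is unknown, a listed 0 does not show that the transcript is absent.

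Cd47 was abundant, at 164 TPM in control 1, 132 TPM in control 2, 133 TPM in the library labelled CD95ko 1 and 64.2 TPM in CD95ko 2. The library labelled CD95ko 2 stood alone below the other 3, and CD95ko 1 lay between the controls. The log2 fold change was -0.66 ± 0.40 SE (95% interval -1.57 to 0.24, limma adjusted p = 0.471). Without CD95ko 1 it was -1.18, and without CD95ko 2 it was -0.14. Cd47 is a forward-strand gene on chromosome 16, from 49800533 to 49915010 (GRCm38). Qpctl, the enzyme that modifies CD47 for binding to SIRPα, was at 2.92 and 1.92 TPM in the controls and at 1.54 and 1.61 TPM in the libraries labelled CD95ko.

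Lgals9 encodes galectin-9, a ligand of TIM-3, and is known as an interferon-responsive gene. It was at 108 TPM in control 1, 23.2 TPM in control 2, 33.6 TPM in the library labelled CD95ko 1 and 82.0 TPM in CD95ko 2. The 2 controls spanned all other values, so the groups overlapped entirely. The log2 fold change was 0.06 ± 0.69 SE (95% interval -1.50 to 1.63, limma adjusted p = 0.977), and it was -0.12 under quantile normalization and -0.14 under median scaling. Without control 1 it was 1.15 and without control 2 it was -1.02, and it was 0.69 without CD95ko 1 and -0.57 without CD95ko 2, so its direction changed with the library left out in either group.

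The promoter of Lgals9 is shown because, of the 10 genes, only its window held the core of the interferon-stimulated response element, GAAA followed after any 2 bases by a second GAAA. The gene lies on chromosome 11 from 78962974 to 78984946 on the reverse strand (GRCm38, GENCODE M21). RefSeq (GRCm38.p6) gives chr11:78984895-78985174, reverse strand, as 250 bases before to 30 bases after the RefSeq start, which differs from the GENCODE start. Capitals mark the matches, both on the strand opposite to the gene.
Lgals9 promoter: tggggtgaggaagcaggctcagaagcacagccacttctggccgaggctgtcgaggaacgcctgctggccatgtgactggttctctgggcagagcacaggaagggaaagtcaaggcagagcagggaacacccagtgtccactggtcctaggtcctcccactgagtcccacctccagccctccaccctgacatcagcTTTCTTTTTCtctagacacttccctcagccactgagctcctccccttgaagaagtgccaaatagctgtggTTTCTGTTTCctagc
One match begins 55 bases before and the other 16 bases after the RefSeq start. This core was found in 3.44% of 32851 RefSeq promoter windows of 300 bases, searched on both strands. Of the other motifs searched, TTCNNNGAA (8.3% of windows), the κB motif (8.46%) and TGACGTCA (1.79%) matched no window of the 10 genes, and TGANTCA (7.81%) matched those of Cd80 and Vtcn1. A match describes letters and is not evidence of binding.

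**Figure D3:**
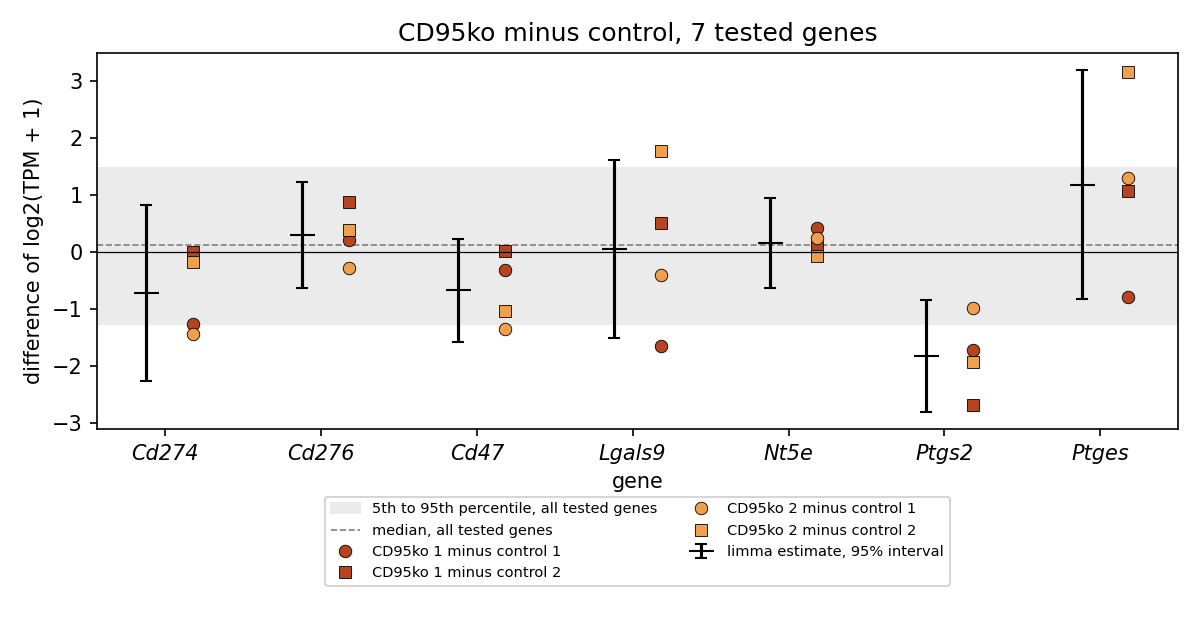
Difference in log2(TPM + 1), CD95ko minus control, for the 7 tested genes; black marks are limma estimates with 95% intervals, coloured points the 4 knockout-control pairs, and the grey band the 5th to 95th percentile of all tested genes. Ptgs2 is the gene whose interval (-2.80 to -0.84) does not include 0, and the pairs of Lgals9 and Ptges lie on both sides of 0.

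Nt5e, which encodes CD73, had the smallest range of log2(TPM + 1) over the 4 libraries among the 7 detected genes. It was at 50.4 and 63.6 TPM in the controls and at 67.6 and 60.5 TPM in the libraries labelled CD95ko. The groups overlapped, and the log2 fold change was 0.17 ± 0.35 SE (95% interval -0.62 to 0.96, limma adjusted p = 0.857). Under median scaling it was -0.04. Nt5e is a forward-strand gene on chromosome 9, from 88327197 to 88372092 (GRCm38). Entpd1, the gene of CD39, was at 0 in all libraries, so the transcript of the AMP-hydrolysing enzyme was detected and that of its usual upstream partner was not.

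Other genes of nucleotide breakdown and adenosine handling were described from a list of 27, of which 18 were tested and Entpd8, Enpp3, Adora2a and Adora3 were at 0 throughout. At an unadjusted limma p under 0.05, 2 (11.1%) were higher and 1 (5.56%) was lower, near the 9.25% and 5.68% of all tested genes, and none passed after adjustment. The median log2 fold change was 0.22, against 0.13 over all tested genes. Entpd3, which encodes another cell-surface enzyme of the CD39 family, was at 13.1 and 6.04 TPM in the controls and at 50.1 and 60.0 TPM in the libraries labelled CD95ko. It was over 2-fold higher in all 4 pairs (log2 fold change 2.49 ± 0.48 SE, limma adjusted p = 0.0994). Panx1, the gene of the pannexin channel that releases ATP from cells, was at 6.50 and 3.24 TPM in the controls and listed at 0 in both libraries labelled CD95ko (limma adjusted p = 0.171).

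Genes that remove adenosine varied to different degrees. The deaminase Ada was at 6.07 to 6.79 TPM in the 4 libraries and the transporter Slc29a1 at 64.0 to 79.2 TPM. A second nucleoside transporter gene, Slc29a2, was at 19.6 and 9.13 TPM in the controls, 14.9 TPM in CD95ko 1 and 2.71 TPM in CD95ko 2. The adenosine kinase Adk was at 36.2 and 39.5 TPM in the controls and at 47.6 and 45.5 TPM in the libraries labelled CD95ko. Of the adenosine receptor genes, Adora1 reached 3.34 TPM in control 1 and Adora2b 1.86 TPM in the library labelled CD95ko 2.

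**Figure D4:**
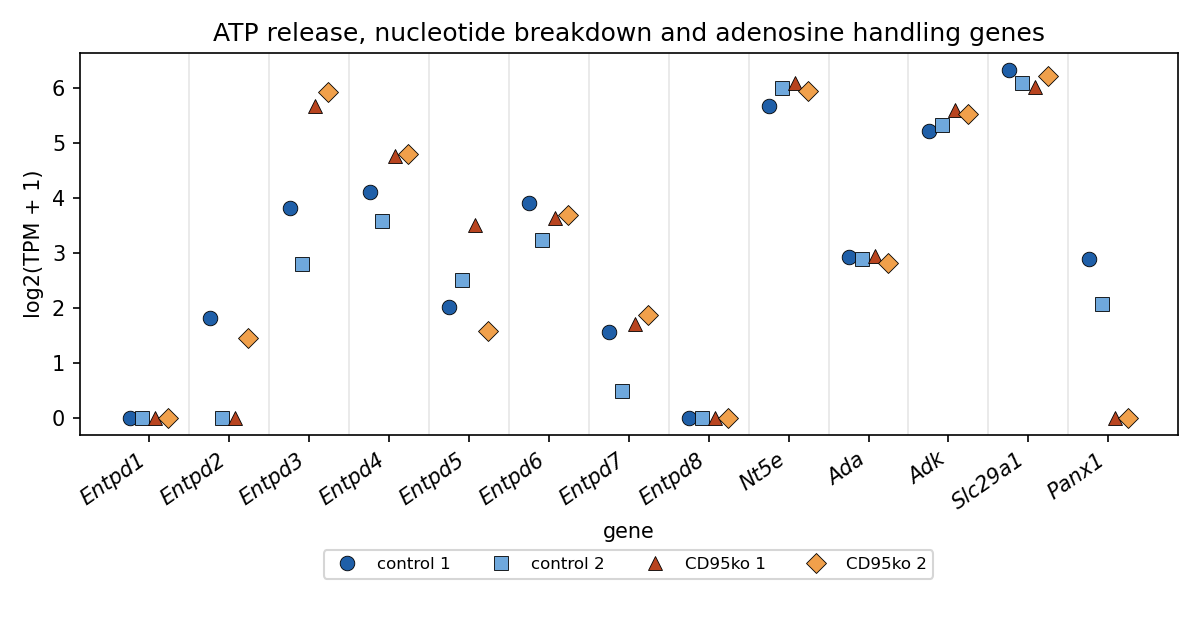
Level of Entpd family genes, Nt5e and genes of ATP release and adenosine handling in each library, as log2(TPM + 1). Entpd1 is at 0 throughout, Nt5e varies little, Entpd3 is higher and Panx1 is at 0 in both libraries labelled CD95ko.

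The 7 detected genes differed between libraries of one group as well as between groups. Between the controls, 3 of the 7 (Cd274, Lgals9 and Ptges) were over 2-fold lower in control 2, with log2 differences of -1.26, -2.16 and -1.86, where 12.6% of tested genes were. The median difference was -0.67 for the 7 and -0.35 for all tested genes. These are differences between single libraries and have no test.

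Between the libraries labelled CD95ko, Cd47 was over 2-fold lower in CD95ko 2 (log2 difference -1.04), where 13.4% of tested genes were. Lgals9 and Ptges were over 2-fold higher there (1.26 and 2.10), where 9.9% of tested genes were. Ptgs2 differed by 0.95 between the controls and by 0.75 between the libraries labelled CD95ko. Its knockout-control differences ran from -2.67 to -0.97, so the smallest was close in size to the difference between the controls. For control 2 minus control 1, 97.9% of tested genes had a lower value than Ptgs2. Cd276 and Nt5e stayed within 2-fold in both pairs.

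**Figure D5:**
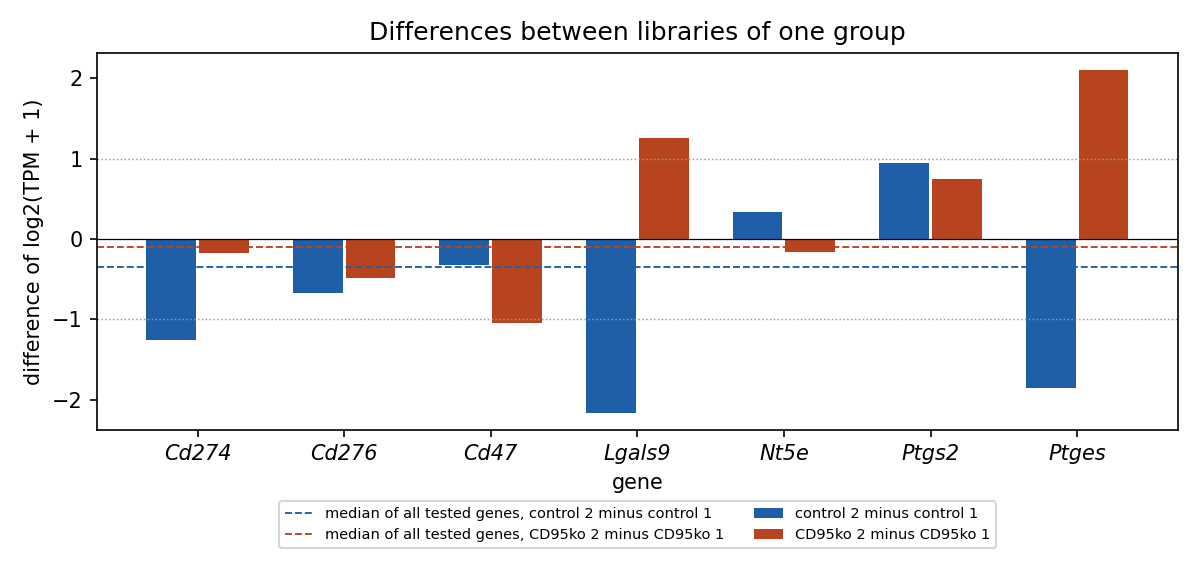
Differences in log2(TPM + 1) between the libraries of one group for the 7 tested genes (blue bars, control 2 minus control 1; red bars, CD95ko 2 minus CD95ko 1); dashed lines are the medians of all tested genes and dotted lines mark 2-fold. Lgals9 and Ptges pass 2-fold in both pairs, downward between controls and upward between the libraries labelled CD95ko.

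Other checkpoint and inhibitory ligands were described from a list of 25 genes, of which 16 were tested and 9 were at 0 in all libraries. The latter were Cd86, Pdcd1lg2, Cd70, Cd200, Tnfsf4, Btla, Fgl1, Ceacam1 and Btnl2. At an unadjusted limma p under 0.05, 4 (25%) were higher and 2 (12.5%) were lower, against 9.25% and 5.68% of all tested genes, and none passed after adjustment. The median log2 fold change was 0.01, against 0.13 over all tested genes.

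Thbs1, which encodes thrombospondin-1, a secreted ligand of CD47, was at 42.5 and 15.9 TPM in the controls and at 110 and 475 TPM in the libraries labelled CD95ko 1 and CD95ko 2 (log2 fold change 3.08 ± 0.68 SE, limma adjusted p = 0.136). Cd24a, the gene of the surface glycoprotein CD24, was at 124 and 86.8 TPM against 193 and 383 TPM (a log2 fold change of 1.39 ± 0.39 SE, limma adjusted p = 0.181). In both genes the library labelled CD95ko 2 was the highest, and in it Cd47 was the lowest. Vsir, the gene of VISTA, listed under its older symbol 4632428N05Rik, was at 1.21 and 0.27 TPM against 2.57 and 26.8 TPM (a log2 fold change of 2.57 ± 0.95 SE, limma adjusted p = 0.265). Its high value was in CD95ko 2, the library with the most Cd68 and Cd14 but not the most Csf1r. Without that library its fold change was 1.09. Btn1a1, the gene of butyrophilin, was at 2.76 and 0 TPM against 6.39 and 5.72 TPM (limma adjusted p = 0.302).

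Pvr, Nectin2 and Nectin3 encode adhesion molecules bound by TIGIT, and none passed after adjustment. Pvr was at 63.1 and 80.6 TPM in the controls and at 18.7 and 19.5 TPM in the libraries labelled CD95ko (log2 fold change -1.85 ± 0.38 SE, limma adjusted p = 0.120). Nectin2, listed as Pvrl2, was at 135 and 186 TPM against 31.4 and 115 TPM (a log2 fold change of -1.38 ± 0.55 SE, limma adjusted p = 0.284). Its fold change was -0.46 without CD95ko 1 and -2.30 without CD95ko 2. Nectin3, listed as Pvrl3, was at 5.84 and 15.3 TPM against 5.15 and 1.84 TPM (limma adjusted p = 0.395). Lgals1, which encodes galectin-1, had the highest TPM of the list, at 6163 and 7854 TPM in the controls and 4792 and 4250 TPM in the libraries labelled CD95ko (log2 fold change -0.62 ± 0.28 SE, limma adjusted p = 0.346).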

How the data were processed

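The deposited values are TPM per gene, per the file headers. The submitters' processing notes name STAR 2.6.0, RSEM 1.3.0 and mm10, and the annotation and strand setting are not given in the sources used here. Groups are those of the sample titles. Of 24411 genes, the 11167 that reached a TPM of 1 in 2 or more libraries were transformed to log2(TPM + 1) and compared with limma 3.58.1 in R 4.3.3 (eBayes with a mean-variance trend, no covariate, two-sided, Benjamini-Hochberg over all tested genes, threshold 0.05). The procedure was run on simulated data with independent noise, a setting without shifts that genes share within a library. Replicate numbers were not used to pair libraries in the main fit, since the labels state no link between same-numbered libraries. The 10 genes and the lists were chosen with earlier results of these data known. From the lists the text names genes with an unadjusted p under 0.05 and groups that do not overlap, genes at 0 throughout, and further genes (such as Irf1, Cmtm6, Ada and Lgals1) picked after their values were seen. List symbols absent from the files were matched through RefSeq synonyms (4 matched; Csn5, a synonym of the listed Cops5, did not). Positions are from GENCODE M21 and promoter sequences from RefSeq (GRCm38.p6), where all 10 genes matched. Alternatives were a pseudocount of 0.1, no filter (all 12974 genes above 0), eBayes without trend, robust eBayes, quantile normalization, median scaling, the replicate block and each library left out. One gene of these lists is not reported here.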

Additional observations from a re-analysis of the deposited data

How the results depend on the processing

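The median over all tested genes of the log2 fold change, 0.13, became 0.002 under quantile normalization and -0.06 under median scaling, and the share of higher genes among those with an unadjusted p under 0.05 went from 62% to 51.9% and 44.5%. An adjusted p under 0.05 was reached by 6 genes as reported, by 0 with the pseudocount at 0.1, by 0 when no filter was used, by 0 without the trend, by 0 under quantile normalization, by 0 under median scaling and by 52 under robust eBayes; the corresponding numbers at an unadjusted p under 0.05 were 1553, 1636, 1531, 1862, 1834 and 1706, against 1667. With one library left out the number ran from 0 to 1034, and the cause was not tested. With the replicate number as a block it was 2, and the block changed no call of the 10 genes; deviations of same-numbered libraries correlated at -0.0814 across genes. With one library left out, 0 to 3 of the 10 genes had an unadjusted p under 0.05, 1 to 2 were over 2-fold apart in all remaining pairs, which are fewer, and 7 to 29 genes of the 5 pathway lists had an unadjusted p under 0.05, against 17 as reported. Both counts by p-value were lowest without control 2 and highest without CD95ko 1, and so was the count over all tested genes. Their change with the library left out is thus not particular to the 10 genes or the lists. Of the 10 genes 7 were tested, and of the 5 lists 72 genes were tested. With all 4 libraries, 16.7% of these 72 were higher and 6.94% lower at an unadjusted limma p under 0.05. The shares of all tested genes were 9.25% and 5.68%. Ptgs2 was lower in the libraries labelled CD95ko under every setting (-2.29 to -1.34). The log2 fold change changed sign for Lgals9 under quantile normalization (-0.12), median scaling (-0.14), and without control 2 or CD95ko 2 (-1.02 and -0.57), for Nt5e under median scaling (-0.04) and for Cd276 without control 2 (-0.03). Over the 4 comparisons that left out a library, Lgals9 ran from -1.02 to 1.15 and Cd276 from -0.03 to 0.64. Of the 16 named pathway genes none changed sign, and Ptgs1 passed the adjusted threshold under robust eBayes (adjusted p = 0.0446). Leaving out a library moved the fold changes of several of these genes. Vsir ran from 1.09 to 4.05, Nectin2 from -2.30 to -0.46, Myc from -2.68 to -1.14 and Thbs1 from 2.03 to 4.14. Cd24a ran from 0.89 to 1.88, Btn1a1 from 0.91 to 2.82, Jak2 from 1.18 to 2.02 and Arg1 from 1.71 to 5.10. The log2 difference of Ptgs1 over Ptgs2 ran from 3.23 to 4.67 with one library left out. Depth is unknown, so a listed 0 has no detection limit.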

Other observations

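Enzymes that act on tryptophan, arginine and related amino acids are another route of immune suppression. Of 8 such genes, 4 were tested, and the tryptophan-degrading Ido1 and Ido2 and the kynureninase gene Kynu were listed at 0 in all 4 libraries. Arg1, which encodes arginase 1, was at 0 in control 1 and control 2, at 2.27 TPM in the library labelled CD95ko 1 and at 33.2 TPM in CD95ko 2 (limma adjusted p = 0.195). Nos2, which encodes the inducible nitric oxide synthase, was at 4.74 and 3.25 TPM in the controls, 1.18 TPM in CD95ko 1 and 40.2 TPM in CD95ko 2 (limma adjusted p = 0.740). Both were highest in the library labelled CD95ko 2, where Ptges, Vsir, Cd68 and Cd14 were also highest. In that library the leukocyte genes Ptprc, Itgam, Adgre1 and Lyz2 were at 0, and Csf1r was lower than in CD95ko 1.

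Receptors that bind the ligands described here are mostly genes of immune cells. Of 7 receptor genes, Pdcd1, Ctla4, Cd28 and Cd226 were listed at 0 in all libraries. Sirpa, the receptor gene of Cd47, was at 7.56 and 5.68 TPM in the controls, 0 in CD95ko 1 and 7.71 TPM in CD95ko 2. Havcr2, which encodes TIM-3, was at 0.97 TPM in control 2, 3.67 TPM in CD95ko 2 and 0 in the other libraries. Tigit, an inhibitory receptor of T cells and natural killer cells, had the highest TPM of the 7, at 61.5 and 79.8 TPM in the controls and 118 and 104 TPM in the libraries labelled CD95ko (log2 fold change 0.66 ± 0.33 SE, limma adjusted p = 0.387). It lies on chromosome 16 from 43648867 to 43664146 on the reverse strand (GRCm38), where GENCODE M21 annotates no overlapping gene. Which transcripts gave these reads cannot be read from gene-level TPM.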
